A study of Mus musculus with 27 samples.

Results

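Vax1, Vax2, Tbx2, Tbx3, Tbx5 and Foxd1 encode transcription factors that divide the developing eye and optic stalk (OS) into dorsal, ventral, nasal and temporal territories. The rule that defines the set gives these 6 genes by name and uses no measured value, although earlier results of these data were known when it was written, and all 6 were found among the 55487 genes of the count table. A gene was tested if it had over 10 counts in 3 or more of the 27 libraries, which held for 16330 genes, among them 5 of the 6 members but not Tbx5. The data came from the mouse OS at embryonic day 14, where laser-capture microdissection gave a dorsal piece, a ventral piece and a piece of retinal ganglion cell (RGC) axons from each embryo. There were 4 control embryos and 5 Smarcc1-DCT-cKO embryos (called mutants here), which makes 6 groups of 4 or 5 libraries. The mutants were Baf155 loxP/loxP; Dct-Cre; Z/EG, where Baf155 is an older name of Smarcc1, which encodes a core part of the SWI/SNF (BAF) chromatin remodeller, Dct-Cre is active in the pigmented epithelium and OS lineages, and Z/EG is a Cre reporter. Controls were littermates without Dct-Cre, and the mice were kept on a C57Bl6/J background. A captured piece also holds cells of other lineages, and the share of recombined cells in a mutant piece was not measured. Batch A, as the labels call it, held 1 control and 3 mutant embryos, and batch B held 3 control and 2 mutant embryos.

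Vax1 and Vax2 are homeobox genes of the ventral eye and the OS, where they restrain retinal and pigmented fates and are needed for closure of the optic fissure. Tbx2, Tbx3 and Tbx5 are T-box genes of the dorsal optic cup that act downstream of Bmp4, a signal of the dorsal eye. Foxd1 is a forkhead gene of the temporal retina and OS, and it is also known from mesenchyme around developing organs. The comparison between pieces therefore asks whether the pieces carry the dorsal and ventral identities in their names, and the comparison between genotypes asks whether these identities differ after the loss of Smarcc1.

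In the mm10 build the 6 genes lie on 5 chromosomes. Vax1 lies at chr19:59166187-59170056 on the minus strand with 1117 exonic bases, and Vax2 at chr6:83711264-83738313 on the plus strand with 1242. The T-box genes are Tbx2 at chr11:85832551-85841948, Tbx3 at chr5:119670669-119684724 and Tbx5 at chr5:119832668-119885219, all on the plus strand. Foxd1, a gene of 5064 exonic bases, lies at chr13:98354242-98359305 on the plus strand. Of the exonic bases of Tbx3, 1.74% are shared with Tbx3os1 on the opposite strand, so reads of the 2 genes cannot be told apart there.

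RefSeq promoter windows (GRCm38.p6, 250 bases before to 50 bases after the start site) were found for 2 of the 6 members, Vax1 and Foxd1. RefSeq places the start of Vax1 outside the GENCODE gene model given above, so the Vax1 window lies wholly upstream of that model, from which the exonic length used for CPM per kb is also taken. Both windows are shown because they were the only ones available, and they were not chosen by the measured levels. The Vax1 window is chr19:59170348-59170647 on the minus strand and the Foxd1 window is chr13:98353995-98354294 on the plus strand, both written 5′ to 3′, with capitals marking CCAAT (or ATTGG, the same letters on the other strand) and the T-box letters GGTGTG (or CACACC).
Vax1: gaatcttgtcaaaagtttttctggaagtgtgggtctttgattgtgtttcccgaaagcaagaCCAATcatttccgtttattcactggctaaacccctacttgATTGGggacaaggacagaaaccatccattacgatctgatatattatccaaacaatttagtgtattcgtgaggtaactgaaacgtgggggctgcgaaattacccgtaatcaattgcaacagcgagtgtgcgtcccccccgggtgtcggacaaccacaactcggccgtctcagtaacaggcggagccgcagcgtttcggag
Foxd1: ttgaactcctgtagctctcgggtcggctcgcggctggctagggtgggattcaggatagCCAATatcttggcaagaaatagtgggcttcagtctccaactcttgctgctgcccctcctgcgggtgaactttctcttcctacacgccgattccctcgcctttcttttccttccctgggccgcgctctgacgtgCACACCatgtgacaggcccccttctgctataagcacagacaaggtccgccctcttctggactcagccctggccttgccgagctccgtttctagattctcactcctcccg
The Vax1 window held CCAAT once on each strand and the Foxd1 window once, and 37.4% of the 32851 windows of this length in the table hold it on either strand. GGTGTG occurred in the Foxd1 window alone of the pair, and in 19.0% of all windows. Neither window held TAATTA, a homeodomain letter string found in 5.29% of all windows, nor the forkhead string GTAAACA, found in 3.65%. The Vax1 window held 17 CpG dinucleotides and the Foxd1 window 15, against a median of 7 over all windows.

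Library totals ranged from 10.9 to 34.0 M counts (M, 1e+06), so that 1 read equals 0.0294 to 0.0917 counts per M (CPM). A count of 0 can stand for up to 3 counts, which is 0.0883 to 0.275 CPM, and this floor covers counting error only, since the reads carry no molecular identifiers. Smarcc1 itself lay between 75.9 and 289 CPM in the dorsal control pieces and between 2.26 and 107 CPM in the dorsal mutant pieces, where the genotypes overlapped. Its levels did not overlap in the ventral pieces (75.7 to 198 CPM in controls, 14.7 to 64.4 CPM in mutants) or in the axon pieces (50.1 to 242 CPM, against 1.86 to 44.9 CPM). Markers of OS neuroepithelium and astrocyte progenitors were present in every group, with 7 or 8 of 8 above 3 counts in each library, but their summed level did not overlap between genotypes in the dorsal pieces (1032 to 1471 CPM in controls, 409 to 821 CPM in mutants). Markers of mesenchyme moved with genotype in the dorsal pieces: the summed level of 11 markers was 1411 to 10392 CPM in the controls and 76.5 to 419 CPM in the mutants. The dorsal piece of control 3 stood apart, with the highest of these mesenchyme sums (10392 CPM), the lowest pigment and melanin marker sum of the dorsal pieces (39.5 CPM, 2 of 8 markers above 3 counts) and 24343 CPM of erythroid markers. In such pieces fewer cells of a type and less RNA per cell cannot be told apart.

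Levels of the patterning factors were low and scattered. Of the 162 values (6 genes in 27 libraries), 96 were 0, or 59.3%, against 31.7% of the values of all tested genes, and 57 were above 3 counts. Vax1 was above 3 counts in 15 libraries, Foxd1 in 14, Vax2 in 12, Tbx3 in 7, Tbx2 in 6 and Tbx5 in 3. Ranked by mean CPM, 9820 of the tested genes stood above Vax2, which was the best-covered member, and 14420 above Tbx3. On a scale per length, the group mean reached 20.7 CPM per kb for Vax2 and 7.52 CPM per kb for Vax1 (both in ventral mutant pieces), 4.50 CPM per kb for Foxd1 and 2.61 CPM per kb for Tbx2 (both in dorsal control pieces), 0.488 CPM per kb for Tbx3 and 0.0685 CPM per kb for Tbx5.

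**Figure D1:**
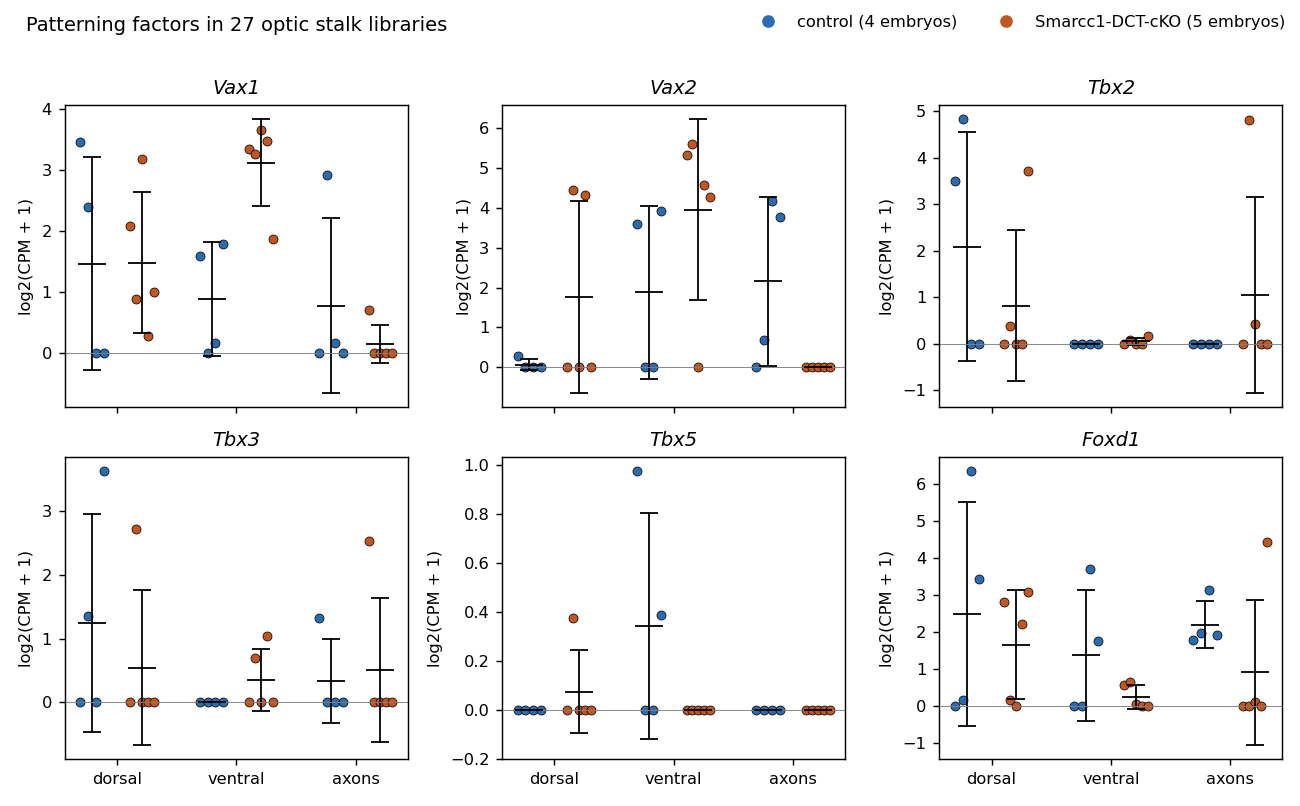
Level of each patterning factor as log2(CPM + 1) in every library, by piece and genotype; each point is 1 embryo, and bars give the group mean and SD. All 5 ventral mutant points of Vax1 lie above the 4 ventral control points, the 5 axon mutant points of Vax2 lie at 0, and most T-box points lie at 0.

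Across the whole table none of the 5 members that passed the count filter was called by edgeR, that is at an adjusted p under 0.05 with an absolute log2 fold change over 0.58. The share of all tested genes that was called was 0.0124% for genotype in the dorsal pieces, 0% in the ventral and 0% in the axon pieces. For dorsal over ventral it was 0% in controls, 0.049% as the mean of both genotypes and 0.00612% for mutant minus control. For dorsal over axons these shares were 0.704%, 1.35% and 0.0122%, and for ventral over axons 0.251%, 0.857% and 0%. The same shares at an unadjusted p under 0.05 were 5.35%, 3.19% and 3.55% for genotype in dorsal, ventral and axon pieces, 2.99%, 4.71% and 2.29% for dorsal over ventral, 6.09%, 13.1% and 4.95% for dorsal over axons and 4.51%, 11.8% and 3.89% for ventral over axons. In these 12 comparisons 5 of 60 member tests had an unadjusted p under 0.05: Tbx2 in dorsal over ventral, Vax1 in ventral over axons (both as the mean of both genotypes), and Vax2 in dorsal over axons within controls and in both interactions with axons. DESeq2 called members in 9 of the 60 tests, and these were of Vax1, Vax2 and Tbx3. They were Vax2 for genotype in axon pieces (8.23% of all tested genes were called there), Tbx3 in the 3 dorsal over ventral contrasts (6.13% in controls, 7.61% as the mean, 5.13% for mutant minus control), Vax2 in dorsal over axons for mutant minus control (13%), Tbx3 in ventral over axons in controls (12%), Vax1 and Tbx3 in the same contrast as the mean of both genotypes (24.8%), and Vax2 in it for mutant minus control (13.2%). With limma voom, which called 0.0372% to 4.89% of genes in these comparisons, 0 members were called. Of 54 exact permutation tests of the 6 members in 9 comparisons, 7 had an unadjusted p under 0.05, and none held after adjustment over all tested genes. Between 4.12% and 14.3% of tested genes lay under 0.05 in the comparisons concerned, and 7.66% did for genotype in the dorsal pieces, where no member was among them.

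Vax1 was higher in the ventral piece of every mutant than in that of any control. The ventral pieces of the 4 controls held 1.99, 0, 0.114 and 2.42 CPM, and those of the 5 mutants 9.13, 8.54, 11.6, 10.1 and 2.63 CPM. The genotypes did not overlap, although the lowest mutant lay close to the highest control. Group means were 1.13 ± 1.26 CPM (SD, n = 4) in controls and 8.40 ± 3.42 CPM (SD, n = 5) in mutants. On log2(CPM + 1) the mutants were higher by 2.24 on average (two-sided exact permutation test, p = 0.0159 over 126 splits, p = 0.025 over the 40 splits within batches). Of 16139 genes tested in the ventral pieces, 0.52% had all mutants above all controls, 1.23% did not overlap in either direction and 4.12% had an exact p under 0.05, and the p adjusted over all of them was 1.00. Within batch A, the mutants' 8.54 to 11.6 CPM stood against 1.99 CPM in 1 control, and within batch B, 10.1 and 2.63 CPM stood against 0, 0.114 and 2.42 CPM. In the edgeR fit the log2 fold change was 2.66 ± 2.28 (SE), with an adjusted p of 0.999.

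In the dorsal pieces Vax1 measured 9.98, 4.22, 0 and 0 CPM in controls and 3.21, 0.835, 8.06, 0.207 and 0.997 CPM in mutants, so that the ranges overlapped (exact permutation p = 1). In the axon pieces it measured 0, 6.55, 0.119 and 0 CPM in controls, and 0.629 CPM in mutant 1 and 0 in the 4 other mutants (exact permutation p = 0.563). The groups in order of their mean were ventral mutants (8.40 CPM), dorsal controls (3.55), dorsal mutants (2.66), axon controls (1.67), ventral controls (1.13) and axon mutants (0.126), and each overlapped with the next.

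Between the pieces of an embryo, Vax1 was highest in the ventral piece of every mutant. In all 5 mutants the ventral piece held more Vax1 than the dorsal piece, and the dorsal value lay above the axon value, although in mutant 4 this was 3 counts against 0, which is within the floor; 3.74% of the tested genes were lower in the dorsal than in the ventral piece of all 5 mutants, and 7.54% were higher in the dorsal than in the axon piece. With 5 embryos the smallest exact permutation p is 0.0625, which both comparisons reached. Of the 4 controls, 2 had a higher value in the ventral than in the dorsal piece, 1 of them (control 3) by 2 counts against 0, and 2 had a lower one. The mutant minus control difference between ventral and axon pieces was 2.87 on log2(CPM + 1), at the smallest exact permutation p that 126 splits allow (p = 0.00794, adjusted p = 1 over all tested genes, 4.13% of which lay under 0.05). The same difference between dorsal and ventral pieces was -2.22 (exact permutation p = 0.0794, with 5.75% of genes under 0.05), and between dorsal and axon pieces 0.65 (exact permutation p = 0.516, with 6.03% of genes under 0.05). Over all 9 embryos Vax1 was higher in ventral than in axon pieces in 7 (mean difference 1.70, exact permutation p = 0.0469, adjusted p = 0.327), a contrast in which 14.3% of genes lay under 0.05. Its value was higher in dorsal than in axon pieces in 6, lower in 2 and equal in 1, with mutant 4 and control 3 differing by no more than the floor (mean difference 1.05, exact permutation p = 0.0469), where 14% of genes lay under 0.05; with single embryos left out, the p reached 0.0938 in both contrasts.

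Vax2 was low in the dorsal control pieces and high in some ventral pieces of both genotypes. The dorsal pieces held 0.208, 0, 0 and 0 CPM in controls and 0, 21.1, 0, 19.2 and 0 CPM in mutants. In the ventral pieces the values were 11.1, 0, 0 and 14.3 CPM in controls and 39.1, 47.8, 0, 22.9 and 18.5 CPM in mutants. Ventral pieces of either genotype thus held either no count or at least 11.1 CPM. Within embryos the ventral piece held more Vax2 than the dorsal piece in 6 of 9, both were at 0 in 3, and the dorsal piece was higher in 0. The mean difference of dorsal minus ventral was -2.03 on log2(CPM + 1) (two-sided exact permutation test over sign changes, p = 0.0313, adjusted p = 0.535 over all tested genes), in a contrast in which 7.67% of genes lay under 0.05. With any 1 of the 6 embryos that showed the difference left out, the exact permutation p was 0.0625. The edgeR log2 fold change of dorsal over ventral, taken as the mean of both genotypes, was -4.36 ± 2.20 (SE), with an adjusted p of 1.

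In the axon pieces Vax2 was above 3 counts in 3 of 4 controls and in 0 of 5 mutants, a difference that edgeR did not call. It measured 0, 0.600, 17.1 and 12.7 CPM in controls and 0 in all 5 mutants, each of which allows up to 3 counts. The ranges touched at 0, since 1 control also had no count. On log2(CPM + 1) the mutants were lower by a mean of 2.16 (the exact permutation test gave p = 0.0476 over all splits and p = 0.1 within batches), with 1 library left out this p ranged from 0.0179 to 0.143, and 4.91% of tested genes had an exact p under 0.05 there. The mean difference between ventral and axon pieces was larger in mutants than in controls by 4.24 on log2(CPM + 1) (exact permutation p = 0.0635). In edgeR the same interaction had an unadjusted p of 0.00617 and an adjusted p of 1, where 3.89% of genes had an unadjusted p under 0.05.

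**Figure D2:**
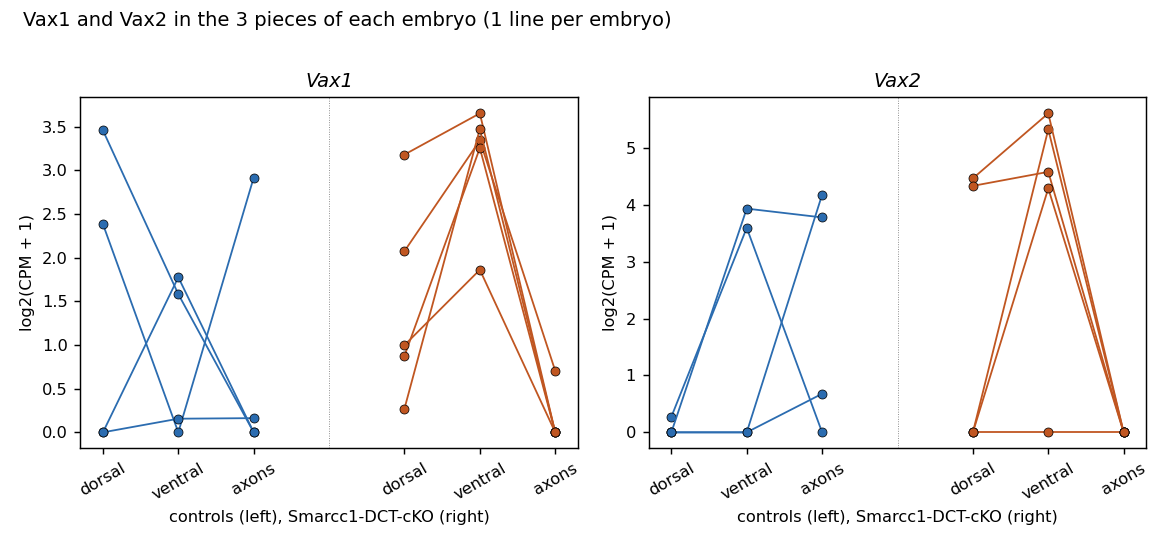
Vax1 (left) and Vax2 (right) as log2(CPM + 1) in the dorsal, ventral and axon pieces, with 1 line per embryo, controls in blue and Smarcc1-DCT-cKO in orange. In every mutant the Vax1 line peaks at the ventral piece, in 4 of 5 mutants the Vax2 line does so, and the control lines cross.

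The ventral over axon contrast within the mutants was added after the values were seen, so its p-values are descriptions and no test of the Vax genes. It put both Vax genes together. Vax1 was higher in the ventral piece of 5 of 5 mutants (7.31% of genes were), and Vax2 of 4, with both pieces at 0 in the fifth. By edgeR the unadjusted p was 0.0156 for Vax1 and 0.00627 for Vax2, and the adjusted p was 0.326 and 0.228, where 11.2% of genes had an unadjusted p under 0.05. In that contrast edgeR called 0.545% of the tested genes, with neither Vax gene among them, while limma voom, which called 4.91% of genes there, called both (adjusted p of 0.0231 for Vax1 and 0.0412 for Vax2). In the same contrast the median log2 fold change of all tested genes was 0.95, and the axon pieces of the mutants had 9225 to 11358 genes with any count against 12918 to 15086 in the ventral pieces. Marker sums also moved with these pieces. RGC and axon markers summed to 151 to 302 CPM in the ventral and to 1129 to 2784 CPM in the axon pieces of the mutants, and pigment and melanin markers to 656 to 3982 CPM and 170 to 1283 CPM; the part of these in the Vax values was not tested. Between the ventral pieces of controls and mutants, the OS marker sum overlapped (1869 to 2201 CPM and 1406 to 2353 CPM), as did the pigment sum (241 to 1189 CPM and 656 to 3982 CPM) and the mesenchyme sum (140 to 1396 CPM and 164 to 338 CPM). The pigment sums overlapped through 1 mutant (656 CPM), and 2 of the 8 pigment markers, named after their values were seen, did not overlap. Of all tested genes, 0.52% had all ventral mutant pieces above all ventral control pieces. The markers Mitf, Tyr, Dct, Pmel and Slc45a2 overlapped, and Mlana was at 0 in every ventral piece. Otx2, a homeobox gene of the pigmented epithelium, measured 0, 0, 0 and 3.54 CPM in ventral control pieces and 17.6 to 86.9 CPM in ventral mutant pieces, and Tyrp1, a melanin synthesis gene, 0 to 17.8 CPM and 25.5 to 222 CPM. The part of these markers in the ventral Vax1 values was not tested.

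The dorsal T-box genes were measured in few libraries. Tbx2, a repressor of the dorsal optic cup, measured 10.4, 27.5, 0 and 0 CPM in the dorsal pieces of controls and 0, 0.298, 0, 0 and 12.0 CPM in those of mutants. It was at 3 counts or fewer in all 9 ventral pieces. In the axon pieces it was at 0 in all 4 controls and at 0, 27.2, 0.340, 0 and 0 CPM in mutants. Dorsal pieces above the floor were thus found in both genotypes, 2 of 4 and 2 of 5, and the rest lay at 0. Tbx2 was higher in dorsal than in ventral pieces in 4 of 9 embryos and at 0 in the dorsal piece of the 5 others (exact permutation p = 0.125). In edgeR its dorsal over ventral log2 fold change, as the mean of both genotypes, had an unadjusted p of 0.0449, which 4.71% of genes had, and an adjusted p of 1; since the ventral pieces are at the floor, no fold is given.

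Tbx3, which lies beside Tbx5 on chromosome 5, showed 0, 1.55, 0 and 11.4 CPM in dorsal control pieces and 5.60 CPM in dorsal mutant 2, with 0 in the 4 other mutants. In the ventral pieces it was at 0 in all 4 controls and at 0.615 and 1.05 CPM in 2 of 5 mutants. The axon pieces held it in control 1 (1.50 CPM) and mutant 1 (4.75 CPM) alone. No group of Tbx3 was above the floor in more than 2 libraries. Tbx5, the T-box gene of the dorsal retina, had 29 counts in all: 0.971 and 0.311 CPM in 2 ventral control pieces and 0.298 CPM in dorsal mutant 2. Its 3 libraries above the floor thus included 2 ventral pieces, and it was too sparse for the fit.

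Foxd1 was above 3 counts in 5 of 9 dorsal, 4 of 9 ventral and 5 of 9 axon pieces, the last including all 4 controls. The dorsal pieces held 0, 0.124, 81.1 and 9.82 CPM in controls and 5.96, 0.119, 0, 3.65 and 7.51 CPM in mutants. One library, dorsal control 3, carried 49.5% of all Foxd1 counts. Ventral pieces measured 0, 0, 12.1 and 2.36 CPM in controls and 0.473, 0.553, 0.0294, 0 and 0 CPM in mutants. In the axon pieces all 4 controls were above the floor, at 2.45, 2.89, 7.81 and 2.79 CPM, while mutants had 0, 0, 0.0680, 0 and 20.5 CPM. The axon ranges overlapped through mutant 5 alone (exact permutation p = 0.238). Dorsal values were higher than ventral values in 6 embryos, lower in 2 and equal in 1, where control 2 (higher) and mutant 3 (lower) differed by no more than the floor, with a mean difference of 1.28 on log2(CPM + 1) (two-sided exact permutation test, p = 0.0469, adjusted p = 0.611). In this contrast 7.67% of genes lay under 0.05, and the exact permutation p was above 0.05 with any of controls 2, 3 and 4 or mutants 1, 4 and 5 left out, with 0.0938 as the highest value. The edgeR log2 fold change of dorsal over ventral was 2.56 ± 2.12 (SE), with an adjusted p of 1.

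Foxd1 libraries were set beside the mesenchyme markers. The dorsal piece of control 3 held 81.1 CPM of Foxd1 and the highest mesenchyme sum, 10392 CPM, and the ventral piece of the same embryo held 12.1 CPM and 1396 CPM, which was the highest mesenchyme sum of the ventral pieces. Dorsal control 2, however, had 3472 CPM of mesenchyme markers and 0.124 CPM of Foxd1, and the 3 dorsal mutant pieces with 3.65 to 7.51 CPM of Foxd1 had mesenchyme sums of 153 to 419 CPM. The part of mesenchyme in the Foxd1 values was not tested.

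**Figure D3:**
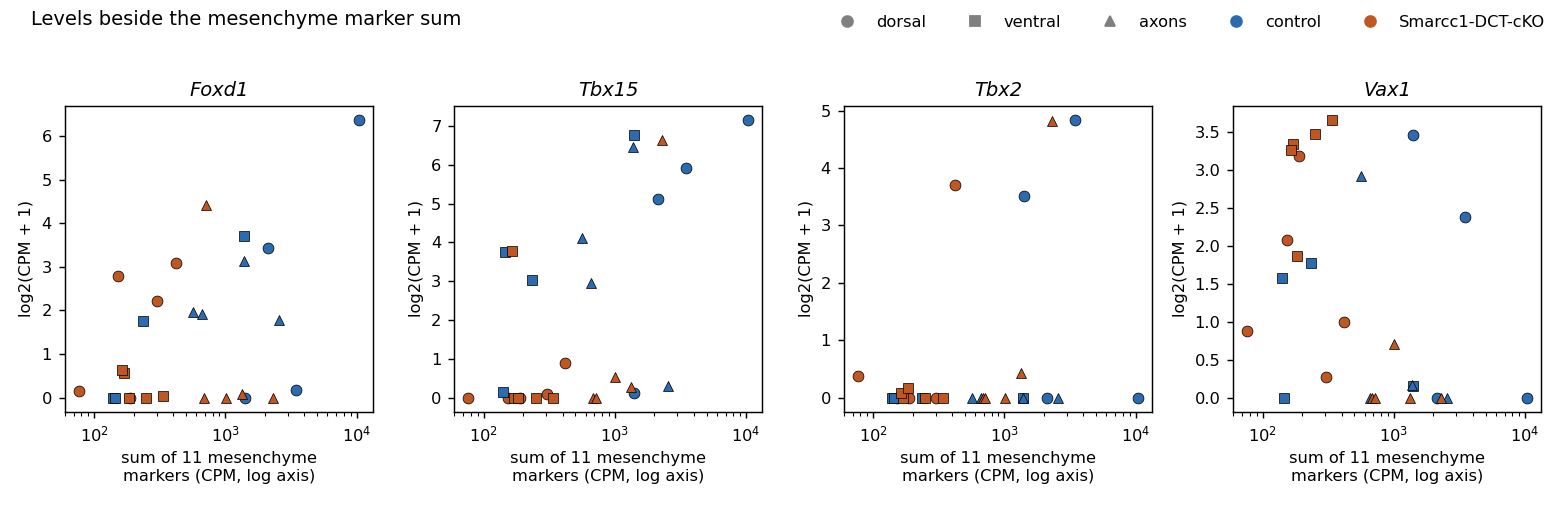
Level of Foxd1, Tbx15, Tbx2 and Vax1 as log2(CPM + 1) against the summed CPM of 11 mesenchyme markers (log axis) in the 27 libraries; circles are dorsal, squares ventral and triangles axon pieces. The Foxd1 and Tbx15 panels have their highest point at dorsal control 3, where the mesenchyme sum is 10392 CPM. The 4 highest Vax1 squares lie at mesenchyme sums of 338 CPM or less, as do all other ventral pieces except that of control 3.

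Genes known for dorsal eye identity had positive dorsal over ventral estimates in the controls, none of which passed the test. Of 7 listed genes 6 were tested, and all 6 had a positive dorsal over ventral log2 fold change in controls, with a median of 1.14 against -0.06 for all tested genes. The edgeR calls and the unadjusted p values under 0.05 numbered 0 each. These fitted signs did not always follow the levels. Aldh1a1 measured 0.250, 0, 0 and 0 CPM in dorsal and 0, 0, 0 and 10.5 CPM in ventral control pieces. Bambi was present in control 4 alone, at 11.2 and 9.94 CPM. Bmp4 was higher in the ventral piece of controls 1 and 2 and in the dorsal piece of controls 3 and 4. Efnb1 was higher in the dorsal piece of every control, while Efnb2 and Nr2f2 varied between embryos. The mesenchyme sum differed between the same pieces (1411 to 10392 CPM in dorsal, 140 to 1396 CPM in ventral control pieces), and its part in these values was not tested. For mutant minus control the median was -1.66 against 0.11, with 4 of 6 negative and 0 called. Efnb1, an ephrin of the dorsal retina, measured 11.1, 71.9, 57.2 and 6.46 CPM in dorsal control pieces and 0, 0, 0, 2.28 and 2.33 CPM in dorsal mutant pieces. These did not overlap, which 1.61% of tested genes shared in this direction, and the exact permutation p was 0.00794, the smallest that 126 splits allow (p = 0.025 within batches). The edgeR log2 fold change of Efnb1 was -6.42 ± 2.11 (SE) with an adjusted p of 0.918, so it was not called. In the ventral pieces Efnb1 was at 2.42 CPM or less apart from mutant 3, which held 62.9 CPM.

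Bmp4, the upstream signal of the T-box genes, measured 0.0416, 22.6, 60.9 and 61.1 CPM in the dorsal control pieces and 20.7 to 69.0 CPM in the dorsal mutant pieces, but it also reached 83.6 CPM in a ventral control and 146 CPM in a ventral mutant piece. It is named here, with Pax2 and Aldh1a3, after its values were seen. Tbx2, Tbx3 and Tbx5 were each at 0 in most libraries, both where Bmp4 was present and where it was not. Dorsal mutant 3 held 51.0 CPM of Bmp4 and 0 of each T-box member, and axon mutant 5 held no count of Bmp4 or of these members. The relation of Bmp4 to the T-box members was not tested.

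The 7 genes of the ventral eye and OS list had mixed signs for dorsal over ventral in controls. In controls 2 of 7 had a positive dorsal over ventral log2 fold change, with a median of -0.17 against -0.06 for all genes, and no gene passed. In the dorsal pieces 6 of 7 had a negative mutant over control log2 fold change, where the median of all tested genes was -0.04. With 0 called, 2 of them had an unadjusted p under 0.05, as 5.35% of genes did. These were Nr2f1, a nuclear receptor of the ventral eye and OS, at 369 to 637 CPM in controls and 187 to 400 CPM in mutants (edgeR log2 fold change -0.77 ± 0.26 SE, adjusted p = 0.918), and Ntn1, the axon guidance cue netrin 1, at 157 to 545 CPM in controls and 1.47 to 97.8 CPM in mutants (-2.04 ± 0.82 SE, adjusted p = 0.918). Ntn1 did not overlap between genotypes in the dorsal pieces, as 1.61% of tested genes did not in this direction. Ephb2, named after its values were seen, went the other way, at 8.19 to 37.1 CPM in controls and 45.9 to 148 CPM in mutants. It did not overlap either, and 1.31% of tested genes had all dorsal mutants above all dorsal controls. In the ventral pieces, where Vax1 was higher in mutants, Ntn1 measured 103 to 387 CPM in controls and 184 to 589 CPM in mutants, and these ranges overlapped. The dorsal differences of Efnb1, Nr2f1, Ntn1 and Ephb2 stood beside the lower sums of mesenchyme and of OS neuroepithelium markers given above. The part of those markers was not tested.

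Pax2 and Aldh1a3, both on the ventral list, ran in opposite directions between pieces. Pax2, the paired box gene of the OS, was lower in the dorsal than in the ventral piece in 8 of 9 embryos, with a mean difference of -1.76 on log2(CPM + 1) (exact permutation p = 0.00781, adjusted p = 0.418). It measured 0.826 to 39.2 CPM in dorsal and 6.91 to 56.5 CPM in ventral control pieces. In mutants it measured 0.0917 to 5.78 CPM and 8.74 to 59.6 CPM. The difference was larger in mutants, by -1.97 (exact permutation p = 0.0476, with 5.75% of genes under 0.05). By antibody labelling the paper reported Pax2 in both OS layers of controls at this day, but not in the dorsal OS of mutants. Aldh1a3, which makes retinoic acid in the ventral retina, was higher in the dorsal piece of all 9 embryos, as 0.343% of tested genes were. It measured 56.6 to 342 CPM in dorsal and 25.5 to 100 CPM in ventral control pieces, and 51.2 to 411 CPM in dorsal and 0.0589 to 71.7 CPM in ventral mutant pieces. Its mean difference was 2.33, at the smallest exact permutation p that 9 embryos allow (p = 0.00391, adjusted p = 0.387), and in edgeR the log2 fold change was 1.55 ± 1.24 (SE), adjusted p = 1. Aldh1a3 thus went against the ventral label of its list in a contrast where Vax2 and Pax2 went with it. Pigment and melanin markers summed to 39.5 to 4912 CPM in dorsal and 241 to 1189 CPM in ventral control pieces. In mutants these sums were 3143 to 12280 CPM and 656 to 3982 CPM. The part of these markers in the Aldh1a3, Vax2 and Pax2 values was not tested.

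**Figure D4:**
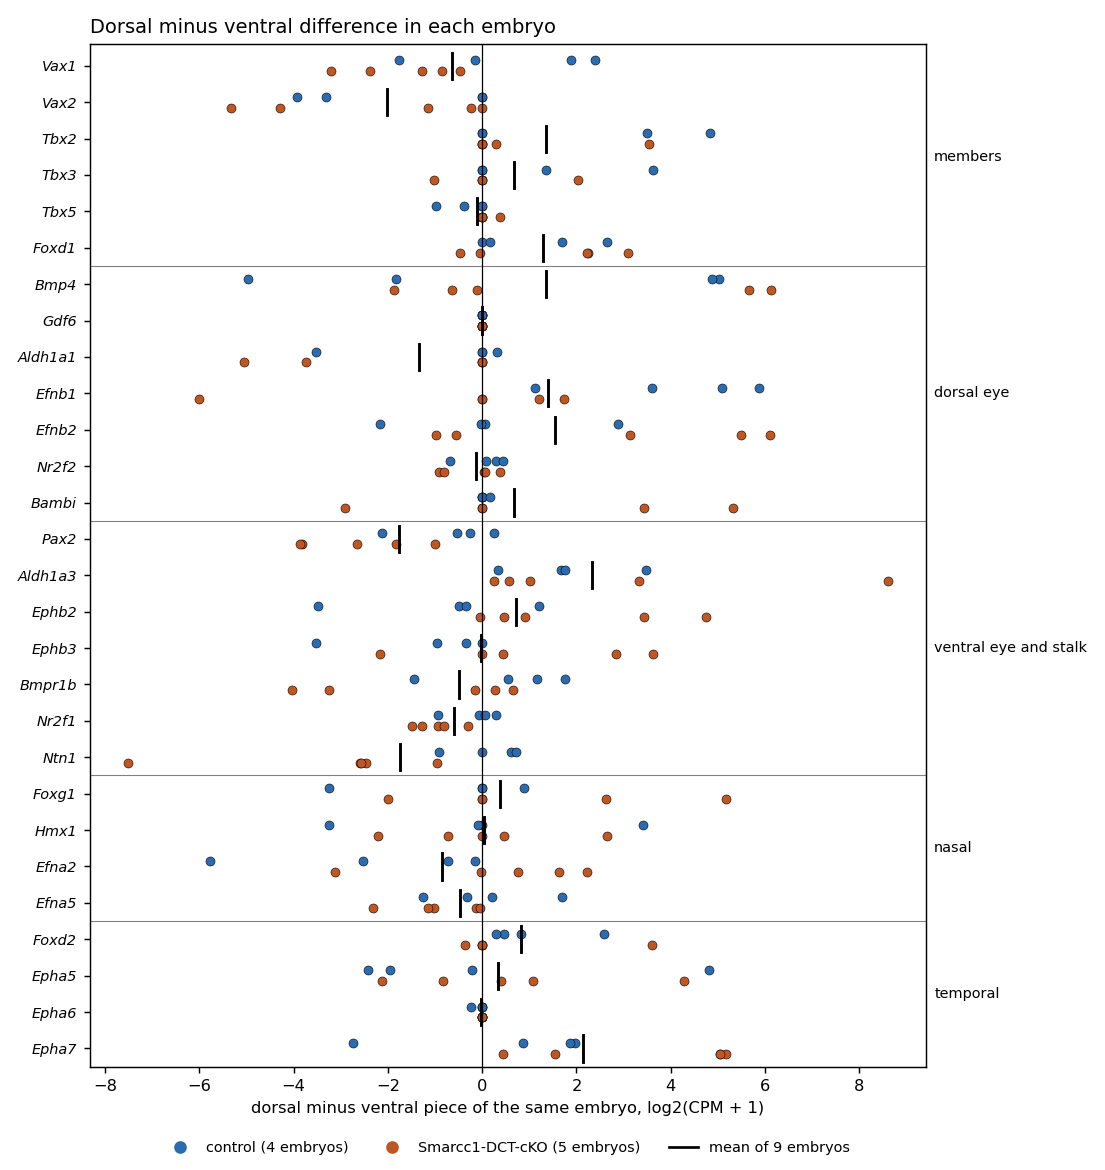
Difference between the dorsal and the ventral piece of the same embryo on log2(CPM + 1), for the 6 patterning factors and the dorsal, ventral, nasal and temporal eye lists; blue points are controls, orange points Smarcc1-DCT-cKO, and black bars the mean of 9 embryos. Vax2 points lie at or below 0, Tbx2 points at or above 0, Aldh1a3 points above 0, and all 5 orange Vax1 points below 0.

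The nasal and temporal lists gave 0 calls in all 12 comparisons. Of the 4 nasal genes all were tested, and of the 4 temporal genes 3 were. In the dorsal over ventral contrast of the controls 1 of 4 nasal and 2 of 3 temporal genes were positive, and 0 had an unadjusted p under 0.05. Foxd2, a relative of Foxd1 and the tested member of 3 other Foxd genes, measured 0.374 to 9.85 CPM in the 4 dorsal control pieces and, among the dorsal mutant pieces, 11.1 CPM in mutant 3 and 0 in the 4 others.

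Among 14 other T-box genes 3 were tested, and 0 were called. Tbx15 and Tbx18, both known from mesenchyme, were among the 3. Tbx15 measured 0.0832, 59.1, 141 and 33.6 CPM in the dorsal control pieces and 0.864 CPM or less in the 5 dorsal mutant pieces (edgeR unadjusted p = 0.00345, adjusted p = 0.844). Tbx18 measured 0, 18.2, 22.1 and 63.9 CPM in dorsal and 0.186 CPM or less in ventral control pieces (dorsal over ventral in controls, edgeR unadjusted p = 0.0207, adjusted p = 1). Both were present in the dorsal pieces of controls 2, 3 and 4, whereas control 1 held 1411 CPM of mesenchyme markers in its dorsal piece with Tbx15 and Tbx18 at or under 3 counts.

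The genes whose pattern over the 27 libraries came nearest to a member were found by Pearson's r on log2(CPM + 1). For Vax1 these were Prkaa2 (r = 0.83), Cercam (0.76) and Thbs1 (0.75), for Vax2 Rab32 (0.76), Dnajc16 (0.75) and Zfp65 (0.74), and for Foxd1 Sav1 (0.75), Rarres2 (0.72) and Tal1 (0.70). These are the nearest of all tested genes over libraries that share embryos, and many of the values are 0, so r describes shared presence in the same few libraries: Prkaa2 and Vax1 were both above 3 counts in 13 libraries, and Tal1 and Foxd1 in 4.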

How the data were processed

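Dorsal OS, ventral OS and RGC axon pieces of embryonic day 14 mouse embryos were captured by laser and sequenced by Geo-seq, a protocol for small captured tissue samples. The authors aligned single-end reads with STAR to mm10 through Seq2Science and deposited raw HTSeq counts per gene; versions, annotation release and strand setting are not given in the sources used here. PCR copies were not removed by molecular identifiers, so counting error understates the true error, most of all for rare transcripts such as these. Day 12 tissue was not analysed here. Of 55487 gene IDs 55227 were paired with a symbol. Library totals ran from 10.9 to 34.0 M (M, 1e+06), and CPM are counts over these totals.

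Genes that exceeded 10 counts in 3 or more of the 27 libraries were tested in R 4.3.3 with edgeR 4.0.16 (TMM scaling, robust quasi-likelihood test, Benjamini-Hochberg adjustment over all tested genes). A gene was called where the adjusted p lay under 0.05 and the log2 fold change exceeded 0.58 in either direction. The SE beside an edgeR fold change was not fitted. It is the absolute log2 fold change divided by the square root of the test's F statistic. Genotypes were compared within each piece with batch as a term. Pieces were compared in 1 model of all 27 libraries with the embryo as a block, where libraries of the same genotype and title number were taken as 1 embryo. The deviations of such libraries correlated at -0.02 to 0.11 over 27 pairs, and 17 of the 27 were closest to their own embryo. Whether embryos came from separate litters is not stated, so p-values measure the spread between these embryos. Two-sided exact permutation tests were run on log2(CPM + 1), over sample splits for genotype and over sign changes of within-embryo differences for pieces. DESeq2 1.42.0, limma 3.58.1 (voom), other scalings and filters, and leaving out each embryo were alternatives. Scripts were tested on simulated data with 200 changed genes. Of genes changed 4-fold, edgeR called 5.5% for genotype in dorsal pieces and 4.5% for dorsal over ventral in controls. At 16-fold it called 32.5% and 24%. The changed genes had higher mean levels than any member, so a missing call does not show that a member was unchanged.

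The members, marker lists and pathway lists were chosen with earlier results of these data known. From each pathway list the genes called, and the 2 with the smallest unadjusted p under 0.05 in a genotype comparison or in the dorsal over ventral contrast of controls, were named, with 3 nearest genes by correlation for each member above 3 counts in at least 9 libraries. Other named genes were chosen after their values were seen.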

Additional observations from a re-analysis of the deposited data

Results flagged for a closer look

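Among 27 groups of member values in which at least 1 library had more than 3 counts, 13 held 1 library far from the others by Dixon's criterion. Its usual chance rate of about 1 in 20 does not hold for values that are mostly 0, so these are descriptions. In Vax1 these were axon mutant 1 (0.629 CPM) and axon control 2 (6.55 CPM), and in Vax2 dorsal control 1 (0.208 CPM). In Tbx2 they were dorsal mutant 5 (12.0 CPM) and axon mutant 2 (27.2 CPM). Tbx3 had dorsal mutant 2 (5.60 CPM), axon mutant 1 (4.75 CPM), dorsal control 4 (11.4 CPM) and axon control 1 (1.50 CPM), and Tbx5 had dorsal mutant 2 (0.298 CPM). In Foxd1 they were axon mutant 5 (20.5 CPM), dorsal control 3 (81.1 CPM) and axon control 3 (7.81 CPM). In 6 of the 13 groups all other libraries were at 0. Dorsal mutant 2 was the library set apart in both Tbx3 and Tbx5, and axon mutant 1 in both Vax1 and Tbx3.

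Of 39 differences of a piece contrast between genotypes, 6 had an unadjusted exact permutation p under 0.05. None held after adjustment over all tested genes. The 39 came from the members and from Efnb1, Nr2f1, Ntn1, Tbx15, Tbx18, Pax2 and Aldh1a3. The latter genes were picked for a small p or after their values were seen. Among the 6, Vax1 alone was a member, so 6 of 39 does not measure an excess. Of all tested genes, 5.75% lay under 0.05 for dorsal over ventral, 6.03% for dorsal over axons and 4.13% for ventral over axons. Vax1 in ventral over axon pieces was larger in mutants by 2.87 on log2(CPM + 1) (exact p = 0.00794). The dorsal minus ventral difference was changed in mutants by -4.53 for Efnb1 (exact p = 0.0397), by -1.97 for Pax2 (exact p = 0.0476), by -0.80 for Nr2f1 (exact p = 0.0476) and by -3.33 for Ntn1 (exact p = 0.0159). The dorsal minus axon difference of Nr2f1 was changed by -1.48 (exact p = 0.00794).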

How the results depend on the processing

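No member result with an unadjusted p under 0.05 changed direction under the alternatives run, and 0 members were called by edgeR under every edgeR setting and with any embryo left out. The number of genes called was 2 for genotype in the dorsal, 0 in the ventral and 0 in the axon pieces. For dorsal over ventral it was 0 in controls, 8 as the mean of both genotypes, 1 for mutant minus control and 5 in mutants. For dorsal over axons it was, in that order, 115, 221, 2 and 114, and for ventral over axons 41, 140, 0 and 89. The contrasts within mutants were added after the data were seen.

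With DESeq2 the counts were 532, 342 and 1233 for genotype, 1001, 1242, 837 and 1258 for dorsal over ventral, 2143, 4232, 2119 and 4290 for dorsal over axons and 1961, 4058, 2149 and 3941 for ventral over axons. DESeq2 called 1 member for genotype in axon pieces, in each of the 3 planned dorsal over ventral contrasts, in dorsal over axons for mutant minus control and in mutants, and in ventral over axons in controls and for mutant minus control. It called 2 members in ventral over axons as the mean of both genotypes and in mutants. In the contrasts within mutants DESeq2 called 26.3% of all tested genes for dorsal over axons and 24.1% for ventral over axons. With limma voom the counts were 41, 6 and 45 for genotype, 34, 47, 10 and 79 for dorsal over ventral, 260, 799, 72 and 839 for dorsal over axons and 128, 663, 29 and 802 for ventral over axons, with 2 members called in the last. The cause of these differences between tools was not tested in the measured data. In simulated genotype data for dorsal pieces, with 200 genes changed 4-fold, DESeq2 called 41 changed and 406 unchanged genes. The edgeR test called 11 changed and 2 unchanged genes there, and limma voom 4 and 19.

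Without the filter on low counts the genotype counts were 101, 8 and 10, and dorsal over axons in controls gave 71. RLE scaling gave 62 there, and it shifted the median of all tested genes from 0.33 to 0.54 (log2) in that contrast. For genotype in dorsal pieces 8 genes were called without the batch term, 0 in batch B alone and 39 with the newer edgeR method. Permuting within batches left 1 of 2 member results for genotype under an unadjusted exact p of 0.05. Of 1093 values of uncalled member fold changes under the alternatives, 69 changed sign, in 26 of 75 member results.

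Title numbers do not pair control and mutant embryos: libraries of the same number correlated at -0.05 to 0.03 over 12 pairs, and 0 were closest to their own number. With this replicate block 0 genes were called for genotype in each piece. Without the embryo as a replicate block, dorsal over ventral gave 5 genes as the mean of both genotypes and 3 in mutants, dorsal over axons 73, 342 and 4 in controls, as the mean and for mutant minus control, and ventral over axons 27 in controls and 1 for mutant minus control.

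With each embryo left out in turn, the genes called ranged from 0 to 2 for genotype in dorsal pieces, and stayed at 0 in ventral and axon pieces. For dorsal over ventral they ranged from 0 to 1 in controls, 5 to 12 as the mean and 2 to 8 in mutants. For dorsal over axons they ranged from 57 to 109, 132 to 223, 2 to 3 and 65 to 136, and for ventral over axons from 13 to 37, 84 to 144, 0 to 1 and 58 to 105. The exact p of Vax1 in ventral pieces ranged from 0.0179 to 0.0286. That of Vax2 in axon pieces reached 0.143, and it stayed under 0.05 only without axon control 1. That of Vax2 in dorsal over ventral reached 0.0625 without control 1 or 4 or mutant 1, 2, 4 or 5. That of Foxd1 in dorsal over ventral reached 0.0938, without control 3 among others.

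Most member values from these small captured pieces are 0, and the number of molecules behind the others was not measured. A 0 allows up to 3 counts, so absence of a factor from a piece was not shown at this depth.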
